A study of Mus musculus with 12 samples.

Results

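The 10 genes described here, Mrc1, Mgl2, Clec10a, Chil3, Il4ra, Tgm2, Cdh1, Flt1, Matk and Socs2, are genes used to mark alternative activation of macrophages, and they were taken by name from a table of 54532 mouse genes. These genes and the gene lists used below were chosen with earlier results of these data known. Their counts set beside shares of all tested genes are therefore descriptions and not tests. The data are RNA sequencing counts from 12 libraries of BMDM, macrophages grown out of bone marrow of mice 8 weeks old in medium with 10 ng/ml of the growth factor M-CSF. The 4 groups of 3 libraries were labelled Lyz2-Cre-Hdac3f/f with LPS, Lyz2-Cre-Hdac3f/f untreated, Hdac3f/f with LPS and Hdac3f/f untreated. LPS, lipopolysaccharide of the bacterial cell wall, was given at 500 ng/ml for 4 h, and the untreated cells spent the same time in medium. Both genotypes carry floxed alleles of Hdac3, which encodes histone deacetylase 3. Lyz2-Cre adds a Cre recombinase driven by the lysozyme gene Lyz2, which is active in myeloid cells. The labels name no addition of interleukin 4 or interleukin 13, so the levels below are those of untreated and LPS-treated cultures. Whether replicates came from different mice or cultures is not stated in the labels, so the p-values measure only the spread between these libraries, which may be technical.

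Alternative activation is the state macrophages enter when interleukin 4 or interleukin 13 binds a receptor that contains the chain encoded by Il4ra, which activates the transcription factor STAT6. Cells in this state make endocytic lectins, secreted chitinase-like proteins and enzymes of tissue repair, and LPS is known to drive macrophages towards a different, inflammatory state. Mrc1, Mgl2 and Clec10a encode C-type lectins of the cell surface, Chil3 a secreted chitinase-like protein, Tgm2 an enzyme that crosslinks proteins, Cdh1 the adhesion protein E-cadherin, Flt1 a receptor for vascular endothelial growth factor, Matk a kinase that restrains Src family kinases, and Socs2 an inhibitor of cytokine signalling.

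Of the 10 genes, 6 were matched to promoter sequences of a RefSeq table, Mrc1, Mgl2, Chil3, Il4ra, Flt1 and Matk, and the promoters of Clec10a, Tgm2, Cdh1 and Socs2 were not analysed here. The sequences are 300 bases long, from 250 bases before the annotated start to 50 after it, on build GRCm38.p6. Shown here are Mrc1, which fell with LPS in both genotypes, Il4ra, which rose in both, and Chil3, whose window held a STAT motif. Capitals mark matches on either strand to the STAT motif TTCNNNGAA, to the STAT6 motif, which is TTC and GAA with 4 bases of any kind between them, or to the NF-kB motif, which is GGG and CC with 5 bases of any kind between them. Matches can overlap.
Mrc1 (chr2:14229164-14229463, plus strand): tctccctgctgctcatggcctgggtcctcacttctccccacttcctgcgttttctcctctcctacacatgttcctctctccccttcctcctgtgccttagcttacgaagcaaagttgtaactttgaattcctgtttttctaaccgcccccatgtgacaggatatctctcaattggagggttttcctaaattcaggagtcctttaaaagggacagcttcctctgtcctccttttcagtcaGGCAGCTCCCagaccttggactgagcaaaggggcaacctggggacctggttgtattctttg
Il4ra (chr7:125552021-125552320, plus strand): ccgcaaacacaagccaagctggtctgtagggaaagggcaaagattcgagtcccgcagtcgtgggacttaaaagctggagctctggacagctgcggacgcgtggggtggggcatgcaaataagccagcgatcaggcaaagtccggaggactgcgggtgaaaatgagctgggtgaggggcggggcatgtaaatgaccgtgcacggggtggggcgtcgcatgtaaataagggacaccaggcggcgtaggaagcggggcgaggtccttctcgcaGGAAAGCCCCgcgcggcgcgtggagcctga
Chil3 (chr3:106167515-106167814, minus strand): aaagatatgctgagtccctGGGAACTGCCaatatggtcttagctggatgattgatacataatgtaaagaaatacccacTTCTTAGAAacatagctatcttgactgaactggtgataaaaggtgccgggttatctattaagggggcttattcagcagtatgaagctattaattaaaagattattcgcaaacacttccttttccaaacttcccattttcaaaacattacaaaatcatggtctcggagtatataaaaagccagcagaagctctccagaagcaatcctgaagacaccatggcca
The STAT6 motif was in 6.95% of the 32851 promoter windows of the table and in none of the windows of these 6 genes. The STAT motif TTCNNNGAA was in 8.3% of all windows and, among these genes, in that of Chil3, starting at position -172 with the annotated start as position 1. The looser NF-kB motif was in 50.8% of all windows and in those of Mrc1, Mgl2, Chil3, Il4ra and Flt1. The motif GAGGAAG, a core bound by the myeloid factor PU.1, was in 13.6% of all windows and in those of Mrc1, Flt1 and Matk. The AP-1 motif TGANTCA, in 7.81% of all windows, was in none of these. All 5 motifs were searched on both strands, and a match is a description of the letters only.

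Library totals ran from 16553432 to 18706990 counts, and 18159 to 21296 genes had at least 1 count. Levels are CPM, counts per 1000000 of the library, scaled by TMM, which corrects for differences in library composition, and a gene was called when the Benjamini-Hochberg adjusted p of edgeR's quasi-likelihood test over 14286 tested genes was under 0.05. All 10 genes passed the filter on low counts. Fold changes are log2 values ± SE from 1 model of all 12 libraries, with n = 3 in each group. Hdac3 itself did not separate the genotypes. It had 37.9, 34.4 and 38.8 CPM in Lyz2-Cre libraries with LPS and 40.7, 39.0 and 38.6 CPM in Hdac3f/f libraries with LPS (log2 fold change -0.09 ± 0.09, adjusted p = 0.473, edgeR). Untreated, it had 36.6, 33.1 and 35.1 CPM in Lyz2-Cre libraries and 36.2, 39.2 and 39.6 CPM in Hdac3f/f libraries (-0.14 ± 0.09, adjusted p = 0.352, edgeR). The count covers the whole gene and does not measure recombination of the floxed part, so the genotypes below are those of the labels, and Lyz2-Cre stands for the libraries labelled Lyz2-Cre-Hdac3f/f. Lyz2, the gene that carries Cre, lay at 6085 to 7721 CPM in Lyz2-Cre libraries with LPS and at 10501 to 12340 CPM in Hdac3f/f libraries with LPS. Untreated, it had 31.0, 5176 and 5632 CPM in Lyz2-Cre libraries and 9310 to 11979 CPM in Hdac3f/f libraries. Replicate 1 of the untreated Lyz2-Cre libraries therefore stood apart. Values of the 10 genes that use this group are given with and without it, and counts of other genes also without it where they differ. All 8 macrophage markers checked, among them Csf1r and Adgre1, were above 1 CPM in every group.

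Per length of gene, the 10 genes spanned a wide range of levels. In untreated Hdac3f/f libraries the deposited FPKM averaged 43.4 ± 9.64 for Mrc1, 37.6 ± 7.52 for Chil3 and 33.8 ± 2.13 for Il4ra (SD, n = 3 each), which did not differ beyond their spread. Below them came Tgm2 at 23.7 ± 2.65 and Clec10a at 11.6 ± 2.13 FPKM. The other 5 genes were scarce, with Matk at 1.46 ± 0.116, Mgl2 at 0.508 ± 0.149, Cdh1 at 0.386 ± 0.0262, Socs2 at 0.125 ± 0.101 and Flt1 at 0.0611 ± 0.0116 FPKM. In Lyz2-Cre libraries with LPS the order was led by Tgm2 at 124 ± 8.68 and Il4ra at 69.0 ± 10.01 FPKM, with Chil3 at 28.7 ± 20.9, Mrc1 at 13.5 ± 1.96, Cdh1 at 1.67 ± 0.267 and Clec10a at 0.917 ± 0.325 FPKM. Hdac3f/f libraries with LPS were led by the same pair, with 199 ± 35.6 FPKM for Tgm2 and 106 ± 23.6 FPKM for Il4ra. Mgl2 rests on 124 counts in all 12 libraries, Socs2 on 464, Flt1 on 465, Matk on 721 and Cdh1 on 963, so their folds have wide errors. Mgl2 and Clec10a are neighbouring near-copies on chromosome 11, whose longest transcripts were 94.3% identical over 810 aligned bases, and how reads that fit both were counted is not given in the sources used here. Chil3 and Chil4 were 94.4% identical over 1538 bases, and Chil4 had 0 counts in every library. Their split of reads is likewise uncertain. Tgm2 is overlapped on the opposite strand by Rprd1b, which had 4257 counts against 83704 for Tgm2 in all libraries together, and whether counting used the strand is not given.

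**Figure D1:**
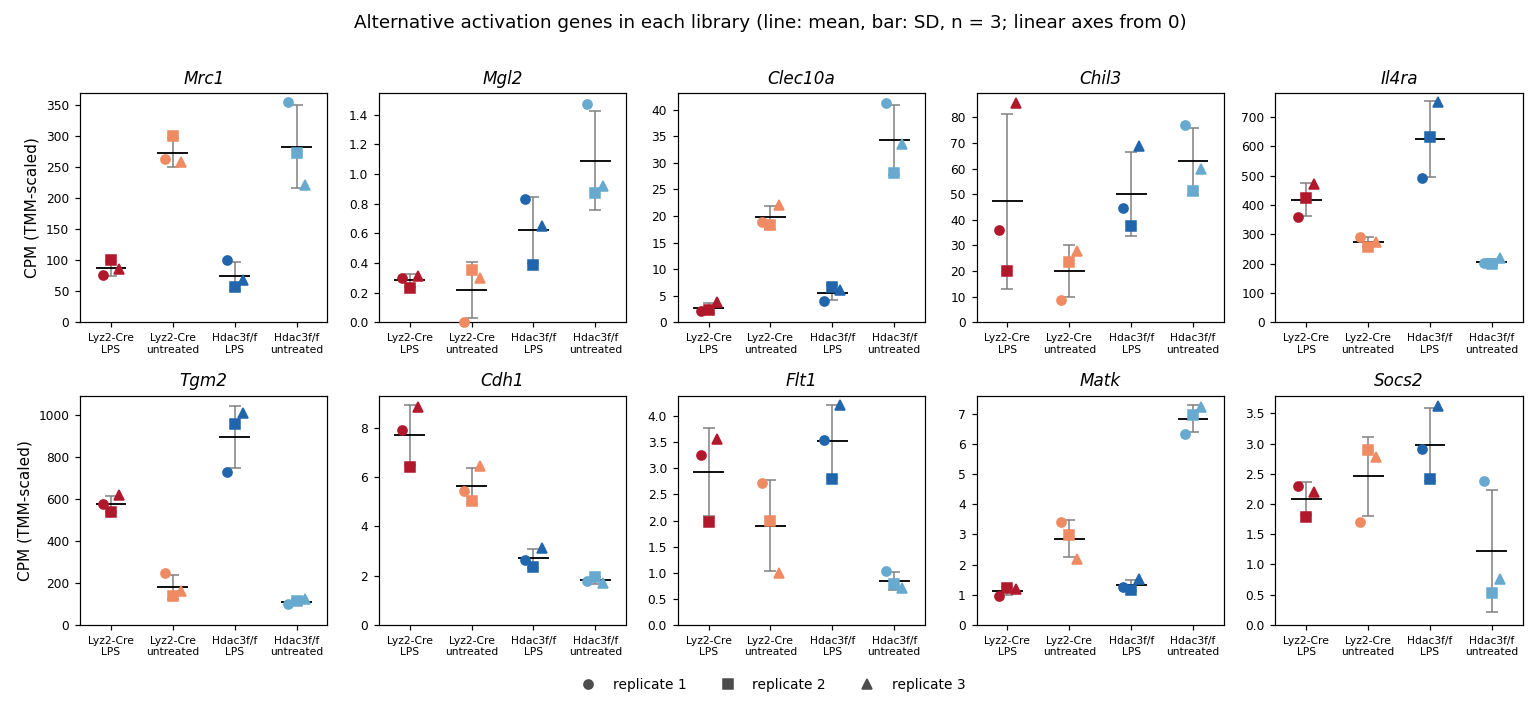
Level of each of the 10 genes in each library, in TMM-scaled CPM on linear axes that start at 0. Points are libraries (the marker shape gives the replicate), horizontal lines are means and bars are SD (n = 3). Mrc1, Clec10a and Matk are lower with LPS in both genotypes, Il4ra and Tgm2 are higher with LPS, and Cdh1 is higher in Lyz2-Cre libraries at both treatments.

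The first question was how these genes responded to LPS in each genotype. Among the lectins, Mrc1 and Clec10a fell in both genotypes, and Matk fell too. Il4ra and Tgm2 rose in both genotypes. In Lyz2-Cre cells 6 of the 10 genes were called, 3 higher and 3 lower, where 52.9% of all tested genes were called (25.2% higher and 27.7% lower). In Hdac3f/f cells 8 were called, 5 higher and 3 lower, where the share was 60.1% (28% higher and 32.1% lower). The libraries of the 2 treatments did not overlap for 5 genes in Lyz2-Cre cells, 2 above and 3 below, where 65.8% of all tested genes did not overlap (30.9% above and 34.9% below). They did not overlap for 9 genes in Hdac3f/f cells, 5 above and 4 below, where the share was 61.4% (28.3% above and 33.1% below). The shares of genes called stood close to or modestly above the share of the whole table, so the number of genes called is no result about these genes. The median log2 fold change of the 10 genes was 0.40 in Lyz2-Cre cells, against -0.08 for all tested genes, and 0.13 in Hdac3f/f cells, against -0.08. With library totals in place of TMM the median over all tested genes was -0.46 in Lyz2-Cre cells and -0.72 in Hdac3f/f cells. The genes called in the whole table were then 2114 higher and 6462 lower in Lyz2-Cre cells, in place of 3606 and 3958, and 2086 higher and 8239 lower in Hdac3f/f cells, in place of 3993 and 4591. Of the 10 genes, library totals gave 4 called in Lyz2-Cre cells, 1 higher and 3 lower, and 7 in Hdac3f/f cells, 3 higher and 4 lower. Fold changes of LPS are therefore relative to the scaling. In these bulk cultures, fewer cells of a type and less RNA per cell cannot be told apart. Without replicate 1 of the untreated Lyz2-Cre libraries 6 genes were again called in Lyz2-Cre cells, with Flt1 in place of Chil3. The LPS responses in Lyz2-Cre cells were then -1.68 for Mrc1, -2.91 for Clec10a, -1.20 for Matk and 0.66 for Il4ra, all called, and 0.43 for Cdh1 and -0.44 for Socs2, not called.

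Mrc1, the mannose receptor (ENSMUSG00000026712, mm10 chr2:14229392-14332057, plus strand), had 75.3, 99.5 and 85.9 CPM in Lyz2-Cre libraries with LPS, against 262, 299.8 and 258 CPM in untreated Lyz2-Cre libraries. It had 100.3, 56.5 and 68.7 CPM in Hdac3f/f libraries with LPS, against 354, 273 and 222 CPM in untreated Hdac3f/f libraries. Every LPS library lay below every untreated library of its genotype. The log2 fold change was -1.65 ± 0.21 in Lyz2-Cre cells (adjusted p = 2.23e-05, edgeR) and -1.91 ± 0.21 in Hdac3f/f cells (adjusted p = 4.75e-06, edgeR). As a description of likeness, the root mean square difference in log2 CPM over the 12 libraries, each gene centred on its own mean, was computed between each gene and 12188 others. Ptpn22 and Spdl1 came closest to Mrc1, at 0.17 and 0.18, beside a spread of Mrc1 itself of 0.93.

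Clec10a, a lectin that binds galactose and N-acetylgalactosamine (ENSMUSG00000000318, mm10 chr11:70156197-70170834, plus strand), showed the largest fall of the 10 genes in both genotypes. Lyz2-Cre libraries with LPS had 2.05, 2.25 and 3.76 CPM, against 18.8, 18.2 and 22.1 CPM in untreated Lyz2-Cre libraries. Hdac3f/f libraries with LPS had 3.96, 6.62 and 6.09 CPM, against 41.2, 28.1 and 33.5 CPM in untreated Hdac3f/f libraries. The groups did not overlap, and the log2 fold change was -2.88 ± 0.25 in Lyz2-Cre cells (adjusted p = 6.27e-07, edgeR) and -2.63 ± 0.23 in Hdac3f/f cells (adjusted p = 6.02e-07, edgeR). Sulf2 and Cyp27a1 were the genes most like Clec10a, with root mean square differences of 0.20 and 0.27. Its near-copy Mgl2 (ENSMUSG00000040950, mm10 chr11:70130329-70137550, plus strand) was not called in either genotype, and lay under the minimum of 1 CPM for the search of like genes. Mgl2 had 5, 4 and 5 counts in Lyz2-Cre libraries with LPS, against 0, 8 and 6 counts in untreated Lyz2-Cre libraries. In Hdac3f/f libraries with LPS it had 12, 5 and 9 counts, against 34, 18 and 18 counts in untreated Hdac3f/f libraries. The log2 fold change of Mgl2 was 0.34 ± 0.72 in Lyz2-Cre cells (adjusted p = 0.712, edgeR), -0.04 there with library totals, -0.22 without replicate 1 of the untreated Lyz2-Cre libraries, and -0.79 ± 0.56 in Hdac3f/f cells (adjusted p = 0.239, edgeR), and its libraries did not overlap in Hdac3f/f cells. With library totals the value in Hdac3f/f cells was -1.42 and called (adjusted p = 0.0456, edgeR).

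Matk, the Csk homologous kinase (ENSMUSG00000004933, mm10 chr10:81252935-81263365, plus strand), had 0.965, 1.21 and 1.19 CPM in Lyz2-Cre libraries with LPS, against 3.40, 2.98 and 2.19 CPM in untreated Lyz2-Cre libraries. Hdac3f/f libraries with LPS had 1.25, 1.17 and 1.52 CPM, against 6.33, 6.95 and 7.20 CPM in untreated Hdac3f/f libraries. Untreated libraries lay above all LPS libraries, and Matk came to a similar level with LPS in both genotypes. It fell by 1.34 ± 0.23 on the log2 scale in Lyz2-Cre cells (adjusted p = 2.97e-04, edgeR) and by 2.37 ± 0.23 in Hdac3f/f cells (adjusted p = 1.23e-06, edgeR).

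Il4ra, the receptor chain shared by interleukin 4 and interleukin 13 (ENSMUSG00000030748, mm10 chr7:125552120-125579474, plus strand), had 358, 425 and 473 CPM in Lyz2-Cre libraries with LPS, against 289.6, 255 and 274 CPM in untreated Lyz2-Cre libraries. Hdac3f/f libraries with LPS had 491, 632 and 750.1 CPM, against 202, 199 and 219 CPM in untreated Hdac3f/f libraries. All LPS libraries lay above the untreated ones of their genotype, and the gap was wider in Hdac3f/f cells. Il4ra rose by 0.62 ± 0.15 on the log2 scale in Lyz2-Cre cells (adjusted p = 0.00311, edgeR) and by 1.59 ± 0.15 in Hdac3f/f cells (adjusted p = 9.47e-07, edgeR). With library totals in place of TMM the value in Lyz2-Cre cells was 0.23 (adjusted p = 0.12, edgeR) and no longer called.

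Tgm2, tissue transglutaminase (ENSMUSG00000037820, mm10 chr2:158116402-158146436, minus strand), showed the largest rise. It had 573, 539 and 616 CPM in Lyz2-Cre libraries with LPS, against 246, 138 and 162 CPM in untreated Lyz2-Cre libraries. Hdac3f/f libraries with LPS had 728, 954 and 1006 CPM, against 99.4, 113 and 121 CPM in untreated Hdac3f/f libraries. The groups were far apart in both genotypes, with log2 fold changes of 1.66 ± 0.19 in Lyz2-Cre cells (adjusted p = 1.03e-05, edgeR) and 3.01 ± 0.20 in Hdac3f/f cells (adjusted p = 4.26e-08, edgeR). Without the Lyz2-Cre library that stood apart, the value in Lyz2-Cre cells was 1.94 ± 0.16 (adjusted p = 1.17e-06, edgeR).

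Flt1 and Socs2 rose in Hdac3f/f cells and were not called in Lyz2-Cre cells. Flt1, VEGF receptor 1 (ENSMUSG00000029648, mm10 chr5:147561604-147726011, minus strand), had 3.54, 2.80 and 4.21 CPM in Hdac3f/f libraries with LPS, against 1.04, 0.778 and 0.715 CPM in untreated Hdac3f/f libraries, a log2 fold change of 2.04 ± 0.37 (adjusted p = 3.81e-04, edgeR). In Lyz2-Cre libraries with LPS it had 3.26, 1.96 and 3.57 CPM, against 2.72, 2 and 0.994 CPM in untreated Lyz2-Cre libraries. Those groups overlapped (0.62 ± 0.35, adjusted p = 0.155, edgeR), and without replicate 1 of the untreated Lyz2-Cre libraries Flt1 was called there too (0.95 ± 0.37, adjusted p = 0.0485, edgeR). Socs2 (ENSMUSG00000020027, mm10 chr10:95385362-95417180, minus strand) had 2.92, 2.41 and 3.63 CPM in Hdac3f/f libraries with LPS, against 2.38, 0.535 and 0.766 CPM in untreated Hdac3f/f libraries. The rise of Socs2 was 1.26 ± 0.45 on the log2 scale (adjusted p = 0.0263, edgeR), and replicate 1 of the untreated Hdac3f/f libraries lay close to the LPS libraries. Without that replicate the value was 2.19 ± 0.35 (adjusted p = 1.82e-04, edgeR), and without replicate 2 or 3 of the same group it was 0.90 or 1.02 and not called. The call of Socs2 was also lost with library totals (0.60, adjusted p = 0.278, edgeR), without replicate 3 of Hdac3f/f with LPS (1.09) and in a fit of only the 2 groups compared (adjusted p = 0.0609, edgeR). In Lyz2-Cre libraries with LPS Socs2 had 2.29, 1.79 and 2.19 CPM, against 1.70, 2.89 and 2.78 CPM in untreated Lyz2-Cre libraries, with overlapping groups (-0.23 ± 0.43, adjusted p = 0.673, edgeR).

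Cdh1 (ENSMUSG00000000303, mm10 chr8:106603351-106670246, plus strand) differed little with LPS. It had 7.90, 6.41 and 8.83 CPM in Lyz2-Cre libraries with LPS, against 5.44, 5.02 and 6.46 CPM in untreated Lyz2-Cre libraries (log2 fold change 0.45 ± 0.18, adjusted p = 0.0529, edgeR). That value of Cdh1 lay at the threshold and was called under 9 of 20 alternatives, among them the DESeq2 test (adjusted p = 0.0376) and limma with voom (adjusted p = 0.0304). In Hdac3f/f libraries with LPS it had 2.64, 2.34 and 3.12 CPM, against 1.78, 1.95 and 1.69 CPM in untreated Hdac3f/f libraries. Cdh1 was called in Hdac3f/f cells (0.58 ± 0.21, adjusted p = 0.0275, edgeR), where the LPS libraries lay above the untreated ones, but the value was -0.06 with library totals. The call of Cdh1 was also lost in 6 other alternatives, among them leaving out replicate 1 or 3 of the untreated or replicate 3 of the LPS-treated Hdac3f/f libraries.

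Chil3, also known as Ym1 (ENSMUSG00000040809, mm10 chr3:106147554-106167564, minus strand), had 36.2, 20.1 and 85.7 CPM in Lyz2-Cre libraries with LPS, against 8.54, 23.5 and 27.8 CPM in untreated Lyz2-Cre libraries. It had 44.5, 37.5 and 68.7 CPM in Hdac3f/f libraries with LPS, against 77.2, 51.4 and 59.8 CPM in untreated Hdac3f/f libraries. The groups overlapped in both genotypes, and the Lyz2-Cre replicates of each treatment differed severalfold. It was called in Lyz2-Cre cells (log2 fold change 1.25 ± 0.48, adjusted p = 0.0454, edgeR) and not in Hdac3f/f cells (-0.32 ± 0.47, adjusted p = 0.581, edgeR). The call in Lyz2-Cre cells was lost under 10 of 20 alternatives, with 0.88 without replicate 1 of the untreated and 0.50 without replicate 3 of the LPS-treated Lyz2-Cre libraries.

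Summed markers of neutrophils, a cell type that also makes Chil3, tended to be higher in libraries with more Chil3. The summed CPM of 8 neutrophil markers was 147, 102 and 369 in Lyz2-Cre libraries with LPS and 56.0, 160.2 and 147 in untreated Lyz2-Cre libraries. It was 131, 158 and 300.02 in Hdac3f/f libraries with LPS and 381, 218 and 264 in untreated Hdac3f/f libraries. Of the genes searched, those most like Chil3 over the 12 libraries were S100a9 and Cd177, with root mean square differences of 0.28 and 0.29. S100a9 encodes a calcium-binding protein abundant in neutrophils and is itself among the 8 summed markers, and Cd177 encodes a neutrophil surface protein. S100a9 had 33.0, 16.2 and 83.1 CPM in Lyz2-Cre libraries with LPS and 4.81, 22.4 and 22.5 CPM in untreated Lyz2-Cre libraries. Chil3 spanned 8.54 to 85.7 CPM over the 12 libraries, while its level as a percentage of the neutrophil sum spanned 14.7% to 34.0%. Of 7 tested neutrophil markers 2 were called higher with LPS in Lyz2-Cre cells and none lower, or 2 higher and 2 lower without replicate 1 of the untreated group. The shares of all tested genes were 25.2% higher and 27.7% lower. In Hdac3f/f cells 1 was called higher with LPS and 2 lower, where the shares were 28% and 32.1%. In untreated Lyz2-Cre cells 2 of the 7 were called lower than in untreated Hdac3f/f cells, where 6.66% of all tested genes were. The count was 0 without replicate 1 of the untreated Lyz2-Cre libraries (edgeR) and 1 with library totals. The part of neutrophil RNA in the differences of Chil3 was not tested. Of 6 other chitinase family genes only Chil1 could be tested, and it rose with LPS by 3.13 ± 0.61 in Lyz2-Cre cells and by 1.85 ± 0.55 in Hdac3f/f cells, the second call being lost with library totals and without replicate 3 of Hdac3f/f with LPS.

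**Figure D2:**
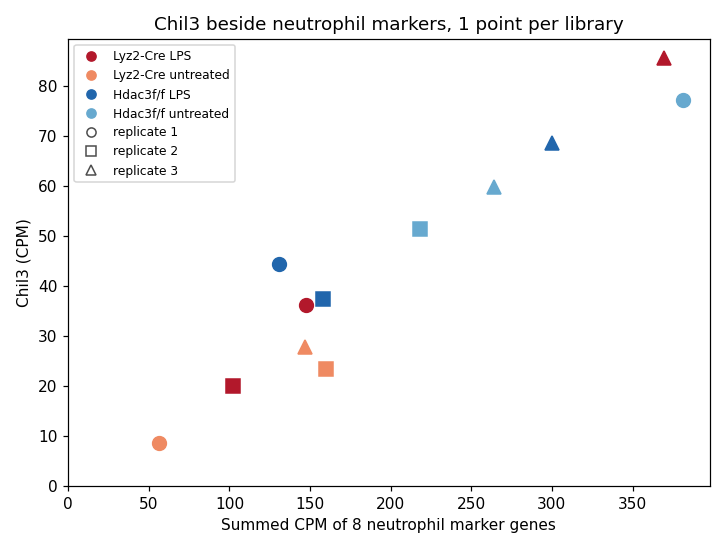
Chil3 (CPM, vertical axis) against the summed CPM of 8 neutrophil marker genes (horizontal axis), with 1 point per library, colour for the group and shape for the replicate. Libraries with more neutrophil marker RNA tend to have more Chil3, from 8.54 CPM in replicate 1 of untreated Lyz2-Cre cells to 85.7 CPM in replicate 3 of Lyz2-Cre cells with LPS.

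**Figure D3:**
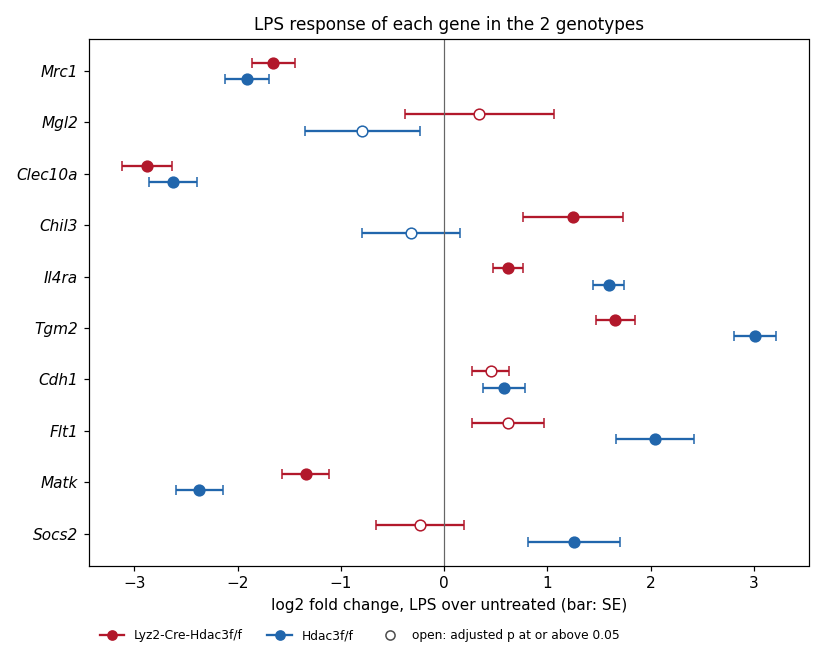
Log2 fold change of LPS over untreated for each gene, in Lyz2-Cre-Hdac3f/f and Hdac3f/f cells, with bars for SE (n = 3 libraries in each group). Filled points have an adjusted p under 0.05 and open points do not. The 2 genotypes lie together for Mrc1 and Clec10a and apart for Il4ra (0.62 and 1.59) and Tgm2 (1.66 and 3.01).

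The difference between genotypes was examined next, without LPS and with it. Cdh1 was the one gene of the 10 called higher in Lyz2-Cre cells at both treatments, and Clec10a the one called lower at both. Untreated Lyz2-Cre cells also had less Matk, Mgl2 and Chil3 and more Tgm2, and Lyz2-Cre cells with LPS had less Il4ra and Tgm2. Untreated, 6 of the 10 genes were called, 2 higher and 4 lower in Lyz2-Cre cells, where 11.8% of all tested genes were called (5.13% higher and 6.66% lower). This count dropped to 3 without the Lyz2-Cre library that stood apart (Cdh1, Matk and Mgl2), and it ran from 2 to 7 when each library was left out in turn. With LPS 4 were called, 1 higher and 3 lower, where 32.6% of all tested genes were called (15.7% higher and 16.9% lower), a share near that background. With library totals the genes called with LPS in the whole table were 4462 higher and 1329 lower, in place of 2243 and 2413. Of the 10 genes, library totals gave 6 called untreated, 3 higher and 3 lower, and 2 called with LPS, Cdh1 higher and Clec10a lower. The libraries of the genotypes did not overlap for 7 genes untreated, 3 above and 4 below, where the share of all tested genes was 36.5% (20% above and 16.5% below). With LPS they did not overlap for 6 genes, 1 above and 5 below, where the share was 43.2% (20.5% above and 22.7% below). The median log2 fold change of the 10 genes was 0.18 untreated, against 0.03 for all tested genes, and -0.39 with LPS, against 0.02. Both comparisons use libraries that also enter the LPS responses above.

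Cdh1, at the values given above, lay between 5.02 and 6.46 CPM in untreated Lyz2-Cre libraries and between 1.69 and 1.95 CPM in untreated Hdac3f/f libraries. With LPS it lay between 6.41 and 8.83 CPM in Lyz2-Cre libraries and between 2.34 and 3.12 CPM in Hdac3f/f libraries. No library of either genotype crossed into the range of the other. The log2 fold change was 1.64 ± 0.20 untreated (adjusted p = 3.98e-04, edgeR) and 1.51 ± 0.20 with LPS (adjusted p = 2.90e-04, edgeR), and it was called under all 20 alternatives at both treatments, with values from 1.53 to 1.72 and from 1.40 to 1.78. Markers of epithelium, the tissue E-cadherin is best known from, were near 0, and none of the 8 passed the filter on low counts. The summed level of 8 such markers was 0.298 to 0.388 CPM in untreated Lyz2-Cre libraries and 0.153 to 0.607 CPM in untreated Hdac3f/f libraries, and Krt8 and Esrp1 had 0 counts in all 12 libraries. With LPS the sum was 0.635 to 1.19 CPM in Lyz2-Cre libraries and 0.347 to 0.653 CPM in Hdac3f/f libraries. Grhl2, named after its values were seen, had 30 counts in Lyz2-Cre libraries with LPS and 3 in Hdac3f/f libraries with LPS, a ratio of 8.23 (95% counting interval 2.56 to 42.1). The interval pools the libraries of a group and leaves out the spread between them. Grhl2 had 0 counts in untreated Lyz2-Cre libraries. With LPS, Krt18 had 5 counts in Lyz2-Cre and 1 in Hdac3f/f libraries, Krt19 had 0 and 4, and Epcam had 3 and 3. The part of epithelial RNA in the difference of Cdh1 was not tested.

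Marker sums of some other cells were also higher in untreated Lyz2-Cre libraries. Summed over 7 mast cell and basophil markers, untreated Lyz2-Cre libraries had 79.1 to 109 CPM and untreated Hdac3f/f libraries 47.0 to 49.2 CPM, and 6 of the 7 were called higher in untreated Lyz2-Cre cells, where 5.13% of all tested genes were, or 4 of the 7 without replicate 1 of the untreated Lyz2-Cre libraries. For 8 dendritic cell markers the sums were 12.3 to 22.9 CPM in untreated Lyz2-Cre libraries and 6.27 to 8.02 CPM in untreated Hdac3f/f libraries, with 1 of 7 tested called higher and Cd209a at 0 in every library. For 9 lymphocyte markers they were 10.3 to 14.8 CPM in untreated Lyz2-Cre libraries and 5.59 to 8.02 CPM in untreated Hdac3f/f libraries, with 2 of 5 tested called higher, or 1 without that replicate and 1 with library totals. With LPS 5 of 7 mast cell and basophil, 3 of 7 dendritic cell and 3 of 5 lymphocyte markers tested were called higher in Lyz2-Cre cells, where 15.7% of all tested genes were. Hdc, the histamine-forming enzyme of the mast cell list, was called lower with LPS (-1.30 ± 0.20, adjusted p = 7.59e-04, edgeR). The mast cell and basophil sums overlapped, at 115 to 189 CPM in Lyz2-Cre and 117 to 167 CPM in Hdac3f/f libraries with LPS. Dendritic cell sums were 44.4 to 54.8 CPM in Lyz2-Cre and 34.3 to 41.2 CPM in Hdac3f/f libraries with LPS. Lymphocyte sums were 11.1 to 21.7 CPM in Lyz2-Cre and 5.41 to 9.64 CPM in Hdac3f/f libraries with LPS. The genes most like Cdh1 over the 12 libraries were Klrc1 and Klrb1b, which encode receptors of natural killer cells, with root mean square differences of 0.22 and 0.23 in log2 CPM. The part of these cells in the difference of Cdh1 was not tested.

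Among the lectins, Clec10a was lower in Lyz2-Cre cells and Mrc1 was not called. Untreated Lyz2-Cre libraries had 18.2 to 22.1 CPM of Clec10a and untreated Hdac3f/f libraries 28.1 to 41.2 CPM, a log2 fold change of -0.80 ± 0.21 (adjusted p = 0.0293, edgeR). This call was lost in 5 of the 20 alternatives, each of which left out an untreated library, among them replicate 1 of Lyz2-Cre (-0.76, adjusted p = 0.0885, edgeR). With LPS Clec10a was lower by 1.05 ± 0.26 on the log2 scale (adjusted p = 0.00987, edgeR), with 2.05 to 3.76 CPM in Lyz2-Cre libraries and 3.96 to 6.62 CPM in Hdac3f/f libraries, and it was called under all 20 alternatives. Eosinophil markers were lower in the same libraries, with sums over 5 markers of 10.3 to 24.4 CPM in Lyz2-Cre and 27.5 to 38.5 CPM in Hdac3f/f libraries with LPS. Of the 5, 3 were called lower, where 16.9% of all tested genes were. Untreated, the sums were 9.78 to 11.7 CPM in Lyz2-Cre and 23.1 to 28.3 CPM in Hdac3f/f libraries. The part of eosinophil RNA in the difference of Clec10a was not tested. Mgl2 was lower in untreated Lyz2-Cre cells, with 14 counts in the 3 Lyz2-Cre libraries and 70 in the 3 Hdac3f/f libraries (log2 fold change -2.28 ± 0.60, adjusted p = 0.0294, edgeR). Without replicate 1 of the untreated Lyz2-Cre libraries, where Mgl2 had 0 counts, the value was -1.72 ± 0.45 (adjusted p = 0.0436, edgeR), and the call was lost in 5 of 20 alternatives. With LPS Mgl2 had 14 counts in Lyz2-Cre libraries and 26 in Hdac3f/f libraries and was not called (-1.14 ± 0.66, adjusted p = 0.198, edgeR). For Mrc1 the log2 fold change was -0.05 ± 0.20 untreated (adjusted p = 0.892, edgeR) and 0.21 ± 0.21 with LPS (adjusted p = 0.46, edgeR), with overlapping libraries, and the untreated value was 0.14 without replicate 1 of the Hdac3f/f libraries.

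Matk was lower in untreated Lyz2-Cre libraries, at 2.19 to 3.40 CPM, than in untreated Hdac3f/f libraries, at 6.33 to 7.20 CPM. The log2 fold change was -1.25 ± 0.20 (adjusted p = 0.00287, edgeR), called under all 20 alternatives and -1.40 without the library that stood apart. With LPS the Matk levels overlapped (-0.23 ± 0.25, adjusted p = 0.534, edgeR), and the value was 0.04 with library totals. Bambi and Ank had the patterns closest to Matk, with root mean square differences of 0.23 log2 CPM each. Chil3 was lower in untreated Lyz2-Cre libraries, at 8.54 to 27.8 CPM against 51.4 to 77.2 CPM in untreated Hdac3f/f libraries (-1.66 ± 0.49, adjusted p = 0.0443, edgeR). The call was lost in 9 of 20 alternatives, among them leaving out replicate 1 of the untreated Lyz2-Cre libraries (-1.29, adjusted p = 0.121, edgeR), and the neutrophil sums were lower in the same libraries. With LPS Chil3 overlapped between the genotypes (-0.09 ± 0.47, adjusted p = 0.906, edgeR), and the sign was not stable, with 0.17 under library totals.

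Tgm2 was called higher in untreated Lyz2-Cre cells, and both Tgm2 and Il4ra were called lower in Lyz2-Cre cells with LPS, each against Hdac3f/f cells. For Tgm2, untreated libraries had 138 to 246 CPM in Lyz2-Cre and 99.4 to 121 CPM in Hdac3f/f, a log2 fold change of 0.71 ± 0.19 (adjusted p = 0.0303, edgeR). That value was 0.43 ± 0.15 and not called without replicate 1 of the untreated Lyz2-Cre libraries (adjusted p = 0.11, edgeR). With LPS Tgm2 had 539 to 616 CPM in Lyz2-Cre and 728 to 1006 CPM in Hdac3f/f libraries (-0.64 ± 0.19, adjusted p = 0.0219, edgeR), with the call lost in 5 of 20 alternatives. For Il4ra, untreated libraries had 255 to 289.6 CPM in Lyz2-Cre and 199 to 219 CPM in Hdac3f/f, without overlap, but 0.40 ± 0.15 was not called (adjusted p = 0.0921, edgeR). With LPS Il4ra had 358 to 473 CPM in Lyz2-Cre and 491 to 750.1 CPM in Hdac3f/f libraries (-0.58 ± 0.15, adjusted p = 0.0106, edgeR). That call was lost with library totals (-0.30) and without replicate 3 of the Hdac3f/f (-0.41) or replicate 1 of the Lyz2-Cre (-0.48) LPS libraries.

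Flt1 and Socs2 were not called between genotypes in the model of all libraries. Untreated, Flt1 differed by 1.16 ± 0.38 on the log2 scale (adjusted p = 0.0644, edgeR) and Socs2 by 0.98 ± 0.44 (adjusted p = 0.164, edgeR), both with overlapping libraries. Flt1 was called under 3 of 20 alternatives, the DESeq2 test (adjusted p = 0.0364), no filter on low counts (adjusted p = 0.0283, edgeR) and leaving out replicate 3 of the untreated Lyz2-Cre libraries (adjusted p = 0.0299, edgeR). Without replicate 1 of the untreated Lyz2-Cre libraries the values were 0.82 for Flt1, 1.18 for Socs2, 0.36 for Il4ra and -0.02 for Mrc1, none called. Without replicate 1 of the untreated Hdac3f/f libraries Socs2 was 1.91 ± 0.35 and called (adjusted p = 0.00467, edgeR). Chd7 and Fmnl2 were most like Flt1 in pattern, with root mean square differences of 0.29 and 0.31 log2 CPM, and Anxa11os and Tnfrsf4 most like Socs2, with 0.35 and 0.38. With LPS the values were -0.27 ± 0.34 for Flt1 (adjusted p = 0.578, edgeR) and -0.51 ± 0.44 for Socs2 (adjusted p = 0.384, edgeR). Summed over 10 endothelial markers, the cells Flt1 is best known from, untreated Lyz2-Cre libraries had 176 to 243 CPM and untreated Hdac3f/f libraries 66.8 to 138 CPM. Kdr, itself among these markers, averaged 67.6 CPM in untreated Lyz2-Cre and 24.3 CPM in untreated Hdac3f/f libraries. In untreated Lyz2-Cre cells 2 of the 10 were called higher, where 5.13% of all tested genes were, or 3 without replicate 1 of that group. With LPS the sums overlapped, at 124 to 159 CPM in Lyz2-Cre and 123 to 147 CPM in Hdac3f/f libraries. Kdr was then called lower in Lyz2-Cre cells (-0.54 ± 0.19, adjusted p = 0.0488, edgeR). That call of Kdr was lost with library totals and without replicate 1 of the untreated Lyz2-Cre libraries. The part of endothelial RNA in the values of Flt1 was not tested. In the authors' deposited table, whose ratios place Hdac3f/f over Lyz2-Cre, the untreated log2 ratio of Il4ra was -0.37 with an adjusted p of 0.00515 in the authors' test, and those of Cdh1 and Matk were -1.61 and 1.29. The untreated difference of Il4ra was not called in the model used here (adjusted p = 0.0921, edgeR).

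**Figure D4:**
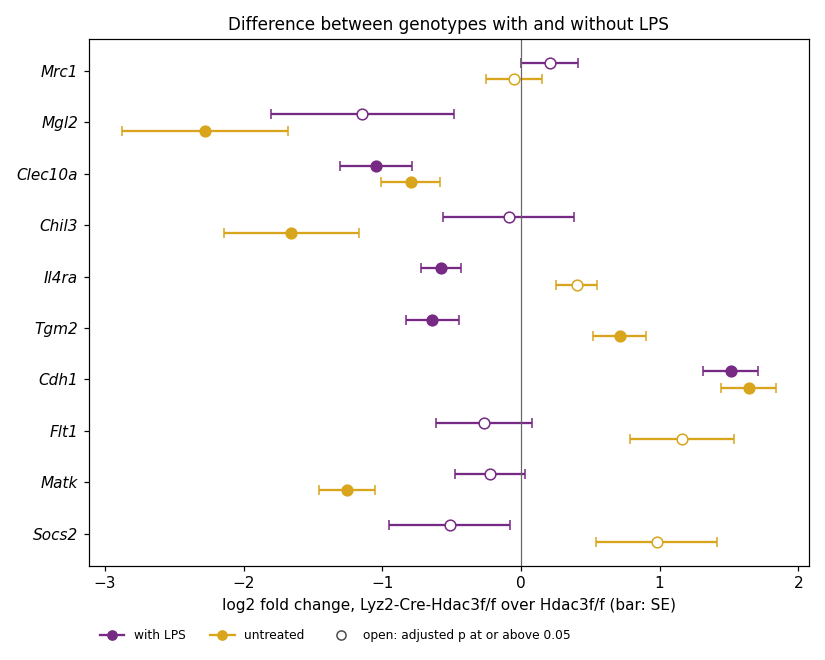
Log2 fold change of Lyz2-Cre-Hdac3f/f over Hdac3f/f for each gene, with LPS and untreated, with bars for SE (n = 3 libraries in each group). Filled points have an adjusted p under 0.05 and open points do not. Cdh1 is to the right of 0 at both treatments (1.51 and 1.64), and Tgm2 and Il4ra are left of 0 with LPS and right of 0 untreated.

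Whether the LPS response differed between genotypes was tested by the interaction, the LPS response in Lyz2-Cre cells minus that in Hdac3f/f cells. Il4ra and Tgm2 rose less with LPS in Lyz2-Cre cells, and the other 8 genes were not called. This is 2 of 10, both lower, where 8.12% of all tested genes were called (2.58% higher and 5.54% lower). With library totals the calls in the whole table were 1135 higher and 449 lower, in place of 369 and 791, and 3 of the 10 genes were called, Matk higher (1.28, adjusted p = 0.0233, edgeR) beside Il4ra and Tgm2 lower. The median interaction of the 10 genes was -0.19, against 0.02 for all tested genes. The interaction of Il4ra was -0.98 ± 0.21 (adjusted p = 0.0129, edgeR) and that of Tgm2 was -1.35 ± 0.27 (adjusted p = 0.00938, edgeR). Both were called under all 19 alternatives, among them without replicate 1 of the untreated Lyz2-Cre libraries, with values from -1.11 to -0.72 for Il4ra and from -1.51 to -1.07 for Tgm2. Matk had an interaction of 1.03 ± 0.32 (adjusted p = 0.073, edgeR), Flt1 of -1.43 ± 0.51 (adjusted p = 0.108, edgeR), Chil3 of 1.57 ± 0.68 (adjusted p = 0.185, edgeR, or 3.45e-04 with no filter on low counts) and Socs2 of -1.49 ± 0.62 (adjusted p = 0.168, edgeR). Socs2 was called without replicate 1 of the untreated Hdac3f/f libraries (-2.43, adjusted p = 0.00631, edgeR), and Flt1 without replicate 3 of the untreated Lyz2-Cre libraries (-1.73, adjusted p = 0.0477, edgeR). Without replicate 1 of the untreated Lyz2-Cre libraries the interactions of Matk, Flt1, Chil3 and Socs2 were 1.17, -1.09, 1.21 and -1.70, none called. Sertad3 and Irf8 were the genes most like Il4ra in pattern, with root mean square differences of 0.09 and 0.13 log2 CPM, and Slc15a3 and Exoc3l4 those most like Tgm2, with 0.20 and 0.22.

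A wider list of 26 other alternative activation genes, of which 22 were tested, did not move as 1 group. With LPS 13 rose and 5 fell in Lyz2-Cre cells (52.9% of all tested genes were called), and 11 rose and 6 fell in Hdac3f/f cells (60.1%). With library totals the counts were 10 and 7 in Lyz2-Cre cells and 8 and 8 in Hdac3f/f cells, and without replicate 1 of the untreated Lyz2-Cre libraries they were 12 and 5 in Lyz2-Cre cells. Slc7a2, a transporter of arginine, rose by 6.13 ± 0.28 on the log2 scale in Lyz2-Cre cells and by 5.49 ± 0.27 in Hdac3f/f cells. Il1rn, the interleukin 1 receptor antagonist, rose by 4.73 ± 0.26 in Lyz2-Cre cells and by 5.67 ± 0.28 in Hdac3f/f cells. Cd200r1, an inhibitory receptor, fell by 1.81 ± 0.09 in Lyz2-Cre cells and by 1.91 ± 0.09 in Hdac3f/f cells. Several of the best-known markers were at or near 0 here. Retnla had 0 counts in all but the untreated Hdac3f/f group, where it had 2, Chil4 had 0 counts throughout, and Arg1 had 27 counts in Lyz2-Cre cells with LPS, 20 in untreated Lyz2-Cre cells, 17 in Hdac3f/f cells with LPS and 6 in untreated Hdac3f/f cells. Ccl17, a chemokine, had 0 counts in both untreated groups and was at least 10.99-fold higher with LPS in Lyz2-Cre cells and at least 18.0-fold higher in Hdac3f/f cells, with the untreated group set to 3 counts.

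Between genotypes, 4 of the 22 were higher and 5 lower in untreated Lyz2-Cre cells (11.8% of all tested genes were called), or 3 and 5 without replicate 1 of the untreated Lyz2-Cre libraries. With LPS 5 were higher and 6 lower (32.6%). These counts with LPS were 6 higher and 4 lower with library totals, and 4 and 5 without that replicate. Pparg, a nuclear receptor of lipid metabolism needed for alternative activation, had 3.17 ± 0.554 CPM in Lyz2-Cre cells with LPS, 15.6 ± 2.47 in untreated Lyz2-Cre cells, 4.60 ± 0.649 in Hdac3f/f cells with LPS and 41.6 ± 4.11 in untreated Hdac3f/f cells (SD, n = 3 each). It was lower in untreated Lyz2-Cre cells by 1.41 ± 0.15 on the log2 scale (adjusted p = 1.76e-04, edgeR). Egr2, a transcription factor of alternative activation, was lower in Lyz2-Cre cells both untreated (-0.85 ± 0.20, adjusted p = 0.0194, edgeR) and with LPS (-0.84 ± 0.20, adjusted p = 0.00838, edgeR). Kdm6b, a demethylase of histone H3, and Ccl22, a chemokine, had the same signs as Tgm2 in these comparisons. Kdm6b was higher in untreated Lyz2-Cre cells (0.97 ± 0.13) and lower with LPS (-0.81 ± 0.13), with an interaction of -1.77 ± 0.18 (adjusted p = 3.47e-04, edgeR). Ccl22 was higher in untreated Lyz2-Cre cells (1.37 ± 0.32) and lower with LPS (-0.84 ± 0.25), with an interaction of -2.21 ± 0.40 (adjusted p = 0.00601, edgeR). Cd163, a scavenger receptor at about 1 CPM or less, rose with LPS in Lyz2-Cre cells (1.65 ± 0.50) and fell in Hdac3f/f cells (-2.32 ± 0.49), and its interaction was 3.97 ± 0.70 (adjusted p = 0.00523, edgeR).

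**Figure D5:**
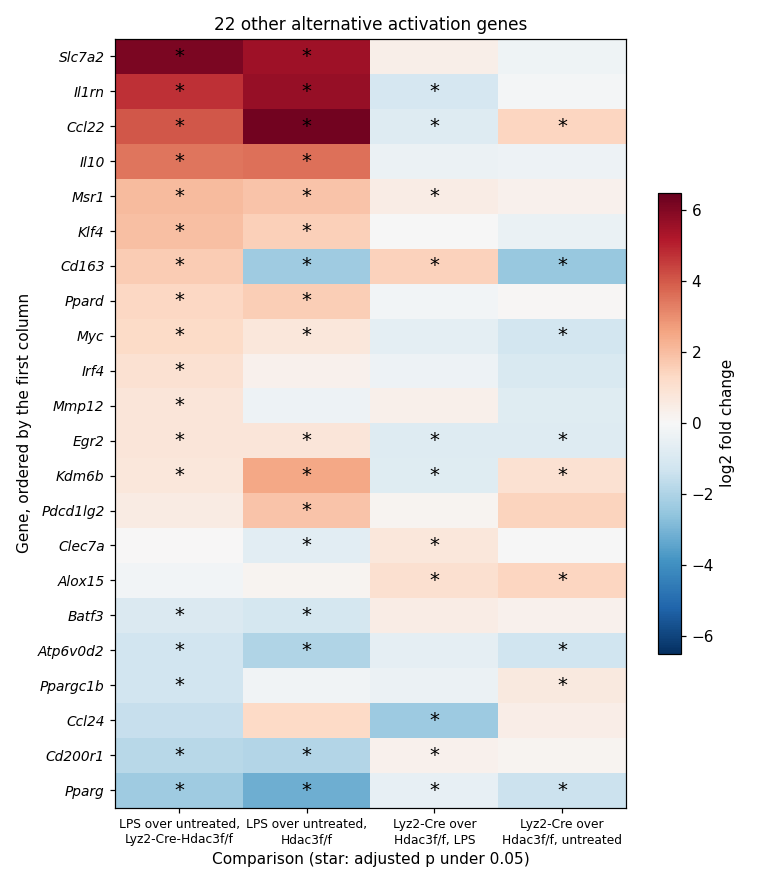
Log2 fold changes of 22 other alternative activation genes (rows) in 4 comparisons (columns), LPS over untreated in each genotype and Lyz2-Cre-Hdac3f/f over Hdac3f/f at each treatment, with a star where the adjusted p was under 0.05. Slc7a2, Il1rn and Ccl22 rise most with LPS, and Pparg is lower in all 4 columns.

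The signalling partners of the 10 genes were examined by role. In the list of 14 genes of interleukin 4 and interleukin 13 signalling, of which 12 were tested, 7 rose and 1 fell with LPS in each genotype, where 52.9% of all tested genes were called in Lyz2-Cre cells and 60.1% in Hdac3f/f cells. The counts were 6 and 2 in Lyz2-Cre and 5 and 4 in Hdac3f/f cells with library totals, and 8 and 1 in Lyz2-Cre cells without replicate 1 of the untreated group. The gene that fell in Lyz2-Cre cells was Il4, which encodes interleukin 4 (-2.39 ± 0.36, adjusted p = 1.11e-04, edgeR). Il13ra1, which pairs with the Il4ra chain, rose by 1.75 ± 0.19 in Lyz2-Cre cells and by 1.96 ± 0.19 in Hdac3f/f cells. Il2rg, the other partner chain, was higher in untreated Lyz2-Cre cells (0.68 ± 0.12, adjusted p = 0.00358, edgeR). Of the kinases bound to these receptors, Tyk2 had a weaker LPS response in Lyz2-Cre cells (interaction -0.84 ± 0.16, adjusted p = 0.00797, edgeR), and Jak2 rose by 3.01 ± 0.23 in Lyz2-Cre and 3.15 ± 0.24 in Hdac3f/f cells. Stat6 averaged 255 ± 4.28 CPM in Lyz2-Cre cells with LPS, 262 ± 4.53 in untreated Lyz2-Cre cells, 267 ± 10.4 in Hdac3f/f cells with LPS and 271 ± 17.9 in untreated Hdac3f/f cells (SD, n = 3 each), and was called in none of the 5 comparisons (adjusted p from 0.553 to 0.954, edgeR).

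Beside Flt1, 2 of 8 tested VEGF ligands and receptors rose and 2 fell with LPS in Lyz2-Cre cells, and 5 rose and 2 fell in Hdac3f/f cells, beside the same shares of all tested genes. With library totals 2 rose and 5 fell in Lyz2-Cre cells and 4 rose and 2 fell in Hdac3f/f cells, and without replicate 1 of the untreated group 2 rose and 3 fell in Lyz2-Cre cells. Kdr, VEGF receptor 2, had 51.5 ± 4.07 CPM in Lyz2-Cre cells with LPS, 67.6 ± 15.9 in untreated Lyz2-Cre cells, 74.8 ± 5.27 in Hdac3f/f cells with LPS and 24.3 ± 6.88 in untreated Hdac3f/f cells (SD, n = 3 each). Its interaction was -2.02 ± 0.28 (adjusted p = 0.00142, edgeR), and that of Flt4, VEGF receptor 3, was -3.37 ± 0.57 (adjusted p = 0.00434, edgeR). Beside Socs2, 4 of 7 other SOCS genes rose and 1 fell in Lyz2-Cre cells, and 4 rose and 3 fell in Hdac3f/f cells, where 52.9% and 60.1% of all tested genes were called, and with library totals 3 rose and 3 fell in Lyz2-Cre cells. Socs3 rose by 7.87 ± 0.32 and Socs1 by 5.44 ± 0.30 in Lyz2-Cre cells, and by 8.84 ± 0.33 and 6.54 ± 0.31 in Hdac3f/f cells, against -0.23 ± 0.43 and 1.26 ± 0.45 for Socs2. Beside Matk, 4 of 8 Csk and Src family genes rose in Lyz2-Cre cells, where 25.2% of all tested genes did, and 5 in Hdac3f/f cells, where 28% did, and none fell in either, although 2 fell in each with library totals. Fgr, a Src family kinase of myeloid cells, had an interaction of -0.67 ± 0.13 (adjusted p = 0.00774, edgeR). Among 6 cadherin partners of Cdh1, Jup, which encodes plakoglobin, was lower in Lyz2-Cre cells both untreated (-1.11 ± 0.18, adjusted p = 0.00247, edgeR) and with LPS (-0.81 ± 0.21, adjusted p = 0.0119, edgeR), and none of the 6 was called higher untreated.

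Beside Tgm2, 2 of 7 other transglutaminases could be tested, and 1 rose and 1 fell with LPS in each genotype. As a contrast to these lists, 17 of 18 genes of classical, inflammatory activation rose in Lyz2-Cre cells (median log2 fold change 4.48) and 18 of 18 in Hdac3f/f cells (median 5.90), or 14 and 18 with library totals. The shares of all tested genes that rose were 25.2% in Lyz2-Cre cells and 28% in Hdac3f/f cells. In the interaction 9 of the 18 were lower, where 5.54% of all tested genes were, and none higher, with a median of -1.20, against -0.19 for the 10 genes described here. With library totals 8 of the 18 were lower, and without replicate 1 of the untreated Lyz2-Cre libraries 6 were. The difference between the medians was not tested.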

How the data were processed

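RNA sequencing covered 12 libraries of mouse macrophages grown from bone marrow, 3 in each of 4 groups of genotype and LPS. Reads were aligned with TopHat2 to the mm10 genome, per the submitters' processing notes. The counting tool, the annotation release and the strandedness are not given in the sources used here. The table the authors deposited holds whole-number counts and FPKM values for each gene and library. It also holds the authors' deposited log2 ratios of Hdac3f/f over Lyz2-Cre-Hdac3f/f with their p-values, some of which are quoted above. Its group means were treated as a normalised signal of the authors' and not used as results. The 10 genes and the gene lists were chosen with earlier results of these data known.

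From the counts, genes were filtered with filterByExpr, scaled by TMM (factors 0.716 to 1.26) and tested in 1 model of the 4 groups with the quasi-likelihood test of edgeR 4.0.16 in R 4.3.3, with Benjamini-Hochberg adjustment over 14286 genes and a threshold of 0.05. FPKM values were used only to compare levels between genes. Likeness used log2 CPM with a prior count of 2. Library totals of 16553432 to 18706990 counts set the counting precision. No replicates were copies of each other: the chi-square between their counts was 7.97 to 46.2 per gene. From each list, up to 4 genes of lowest p, genes with at least 5 CPM called in all 4 comparisons of 2 groups, and genes at 0 in every library could be named. Retnla, Arg1, Ccl17, Stat6, Grhl2, Krt18, Krt19 and Epcam were named outside this rule, after their values were seen. Alternatives were DESeq2 1.42.0 and its size factors, limma 3.58.1 with voom, library totals, no or a stricter filter, a replicate block, only the 2 groups compared, and leaving out each library. The scripts were tested on simulated data. Promoters came from a RefSeq table of build GRCm38.p6. Gene coordinates are mm10 positions.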

Additional observations from a re-analysis of the deposited data

Results flagged for a closer look

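For Il4ra the LPS response differed between the genotypes by the test of the difference itself. The response was 0.62 ± 0.15 on the log2 scale in Lyz2-Cre cells and 1.59 ± 0.15 in Hdac3f/f cells, a difference of -0.98 ± 0.21 (adjusted p = 0.0129, edgeR's quasi-likelihood test).

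For Tgm2 the LPS response also differed between the genotypes by that test. The response was 1.66 ± 0.19 in Lyz2-Cre cells and 3.01 ± 0.20 in Hdac3f/f cells, a difference of -1.35 ± 0.27 (adjusted p = 0.00938, edgeR's quasi-likelihood test). Without replicate 1 of the untreated Lyz2-Cre libraries the difference was -1.07 ± 0.20 and was again called.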

How the results depend on the processing

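Of 989 alternative values for the 10 genes in 5 comparisons, 900 kept their direction and side of the threshold, 55 kept the direction and lost the call, 22 kept it and gained one, and 12 changed sign. With library totals the signs changed for Mgl2 (LPS response in Lyz2-Cre cells, -0.0433), Cdh1 (LPS response in Hdac3f/f cells, -0.0551, and interaction, 0.117), Chil3 and Matk (genotype with LPS, 0.167 and 0.0402) and Clec10a (interaction, 0.0135). The other changes of sign came from leaving out 1 library. The LPS response of Mgl2 in Lyz2-Cre cells then ranged from -0.22 (without replicate 1 of untreated Lyz2-Cre) to 0.90. The genotype difference of untreated Mrc1 ranged from -0.20 to 0.14 (without replicate 1 of untreated Hdac3f/f), and that of Chil3 with LPS from -0.84 to 0.28, above 0 without replicate 3 of Hdac3f/f and without replicate 1 or 2 of Lyz2-Cre. The interaction of Cdh1 ranged from -0.24 to 0.0168 (without replicate 3 of Hdac3f/f with LPS). When each library was left out in turn, the genes called between untreated genotypes ranged from 775 to 2545 (1685 in full) and the members from 2 to 7 (6 in full). Between genotypes with LPS they ranged from 2833 to 5992 genes (4656 in full) and from 2 to 4 members (4 in full), and 2 members were called with library totals. For the interaction the count was 1792 with the DESeq2 test and 563 to 2032 when a library was left out (1160 in full). Whether replicate numbers pair the libraries could not be decided from 3 libraries a group. Same-numbered libraries deviated from their group means with correlations from -0.404 to 0.217. Some were more alike than libraries of other numbers, as for replicate 1 between genotypes with LPS (0.217, against at most -0.101). Others were less alike, as for replicate 1 between untreated genotypes (-0.404, against up to 0.353). With a replicate block 7687 and 8717 genes were called for LPS in Lyz2-Cre and Hdac3f/f cells, 1886 and 4989 between genotypes untreated and with LPS, and 1196 for the interaction, with 7, 8, 6, 4 and 2 members. Cdh1 was the added member (0.45, adjusted p = 0.0496, edgeR). Depth limits Mgl2, with 124 counts in all libraries. The cause of these changes was not tested.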
